A study of Mus musculus with 1 sample.

Results

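The genes described here are 10 enzymes that supply NADPH or belong to the pentose phosphate pathway: G6pdx, G6pd2, Pgls, Pgd, Tkt, Taldo1, Rpia, Rpe, Me1 and Idh1. They were chosen by function, with earlier results of these data known, and their probes were found by the gene symbol in the platform's annotation. Of the 10, 9 had a named probe, each with 1 probe and 1 spot, out of 19321 named genes on the array. G6pdx had no probe under its symbol, its gene identifier or its RefSeq accession, and its transcript was not analysed here. The sample is 1 culture of parental RAW264.7, an established mouse macrophage-like line, not mutagenised and grown in medium with serum. The study set such cells against lines treated with the mutagen ENU and sorted for loss of peroxiredoxin uptake. The mutant lines were not analysed here, so no comparison between lines was made. With 1 array there are no replicates, no p-value is given, and the number of arrays limits the precision.

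NADPH is the electron donor that keeps thioredoxin and glutathione reduced, and peroxiredoxins depend on thioredoxin to break down peroxides. The oxidative branch of the pentose phosphate pathway makes NADPH in the cytosol at the glucose 6-phosphate and 6-phosphogluconate dehydrogenase steps. The non-oxidative branch interconverts sugar phosphates and links the pathway to glycolysis and to ribose for nucleotides. Cytosolic malic enzyme and isocitrate dehydrogenase make NADPH from malate and isocitrate. In macrophages NADPH also feeds the oxidative burst.

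G6pd2 is known as an intronless autosomal copy of the X-linked G6pdx, and it is known mainly from testis. The probe's own sequence was not used here, and the likeness of the genes is shown from the reference. Both stretches below are taken from RefSeq on build GRCm38.p6 and printed 5′ to 3′ on the gene's strand. They show the likeness of the genes near their starts only. Where the probe lies was not known, so they do not show which transcripts it binds. Capitals mark the longest run of bases that the promoter windows of both genes share. A window runs from 250 bases before an annotated start to 50 bases after it.
G6pdx, chrX:74428836-74428865, minus strand: CTACAGATCTGTGAACGTGTTTGGCAGcgg
G6pd2, chr5:61808833-61808862, plus strand: CTACAGATCTGTGAACGTGTTTGGCAGtgg
The shared run is 27 bases long, and 2 of the 32851 windows in the table hold it, namely these. In G6pdx it begins at base 16 of the transcribed part, and in G6pd2 it begins 10 bases before the annotated start. The run ends at the difference C28T, with the base of G6pdx first and positions counted from 1 at the first base printed. From the first printed base to the end of the G6pdx window, 34 of 35 bases were identical. Over the 44 other pairs of the 10 genes, the longest shared run was 7 to 12 bases.

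Signals are median pixel intensities of the Cy5 dye in arbitrary units with no background subtracted, and a gene with several probes takes the highest. The blank threshold, 22.98, is the mean plus 2 SD of the array's blank spots after trimming. The receptor threshold, 55.8, lies at the 95th percentile of 1223 probes for olfactory, vomeronasal and taste receptors. These families were taken as a reference of mostly low signal, and whether this line expresses any of them was not tested. Every measured member, 9 of 9, passed both thresholds. Over all named genes, 72.8% passed the blank threshold and 42.8% passed the receptor threshold. The median of the 9 members was 735 and that of all named genes was 40.1, and 8.89% of named genes read at or over the member median. The reading of the dimmest member probe was equalled or passed by 18.7% of named genes.

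The spread between spots on this array can be read from its control spots. Positive control 2 had a mean of 12934 ± 645 (SD, 24 spots), a coefficient of variation of 4.98%, and positive control 3 had 29508 ± 1585 (SD, 24 spots), or 5.37%. Coefficients of variation of the 4 negative controls ran from 3.50% to 8.91%. Of 96 negative control spots, 4 passed the blank threshold, up to a reading of 26.3, and 0 passed the receptor threshold. Readings of 23.4 to 26.1 given below as over the blank threshold lie within that range. These values cover variation between spots of 1 hybridisation and say nothing of the variation between cultures. Each control was printed in 6 of the array's 24 grids of spots. No control spot read within the members' range of 274 to 6823, so the spread there was not measured. A signal depends on the probe as well as on the transcript, so members were set against the thresholds and not ranked against each other. The medians of gene lists and the shares of named genes rest on such signals and carry the same limit. The check of the line against its markers found 8 of 10 macrophage genes over the receptor threshold, with Spi1 at 858 and Csf1r at 642, while Mrc1 at 19.9 and Marco at 22.6 were not over the blank threshold. Of 32 measured markers of other cell types, 19 passed the blank threshold and 3 passed the receptor threshold, beside 72.8% and 42.8% of all named genes. A pass of the blank threshold alone is therefore a weak call.

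**Figure D1:**
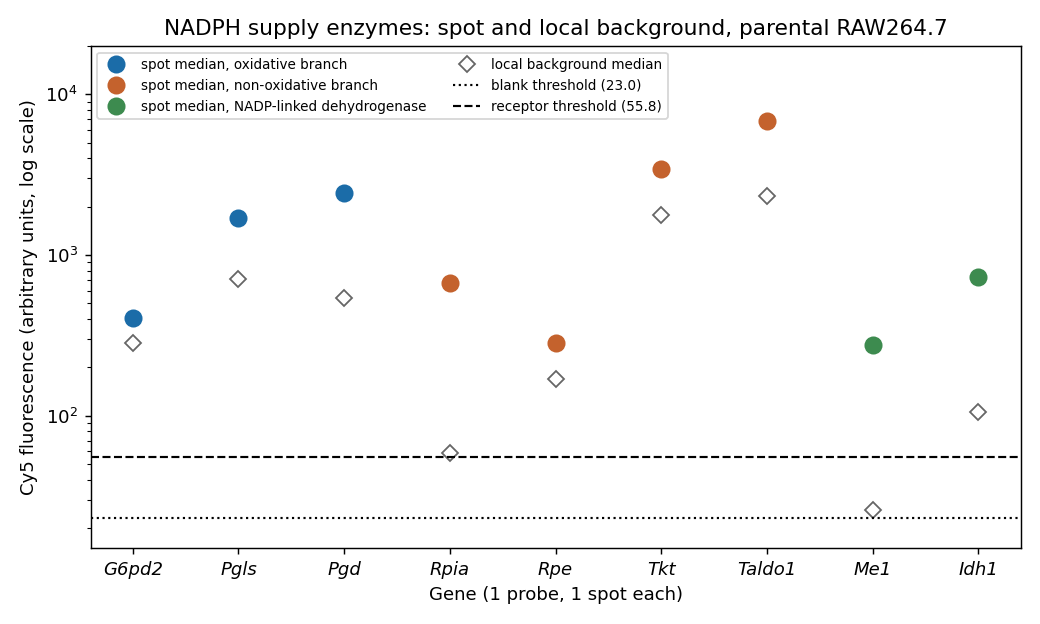
Spot median (filled circles, coloured by branch) and local background median (open diamonds) of the 9 measured genes in the 1 parental array, on a log axis in arbitrary units. Dotted and dashed lines mark the blank threshold of 22.98 and the receptor threshold of 55.8. All 9 spot medians lie over both lines, and the ratio of spot to background is largest for Rpia and Me1 and smallest for G6pd2.

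In the oxidative branch, the 3 genes with a probe all passed the receptor threshold, at 7.32 to 43.6 times. Pgls, whose product 6-phosphogluconolactonase opens the lactone made by the first dehydrogenase, read 1707 (probe M200006491). Its local background was 715, and its margin over the receptor threshold was 30.6-fold. Pgd, the 6-phosphogluconate dehydrogenase that yields the branch's other NADPH, read 2433 (probe M200004874) over a local background of 544. That reading was 43.6 times the receptor threshold. The named readings therefore cover the steps after the entry of the branch, and the entry enzyme itself is represented by the probe of the copy alone.

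The G6pd2 probe (M400002985) read 408, which is 17.8 times the blank threshold and 7.32 times the receptor threshold. Whether G6pdx transcripts bind this probe was not tested, so the reading is given as uncertain between the gene and its copy. Of 4 germ cell genes, Prm1 at 17.7 and Tnp1 at 21.1 were not over the blank threshold, Prm2 lay between the thresholds at 37.1, and Ddx4 passed the receptor threshold at 190. These readings do not show whether G6pd2 itself is transcribed in this line, and what gave the signal at the G6pd2 probe was not tested. The local background at this spot, 285, was 69.8% of the spot median, the largest share among the 9. It was also larger than the brightest of the 8 neighbouring spots, which read 255.

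All 4 non-oxidative enzymes passed the receptor threshold, at 5.10 to 122 times. Rpia, the isomerase that makes ribose 5-phosphate from ribulose 5-phosphate, read 673 (probe M400004527) over a local background of 58.7, a margin of 12.1-fold. Rpe, the epimerase that makes xylulose 5-phosphate from the same substrate, read 284 (probe M200014002) over a local background of 169, a margin of 5.10-fold. Both enzymes at the fork after ribulose 5-phosphate were therefore read above the thresholds. Tkt, the thiamine-dependent transketolase, read 3435 (probe M200009754) over a local background of 1764, a margin of 61.6-fold. Taldo1, the transaldolase that passes carbons back to glycolytic intermediates, read 6823 (probe M300004665) over a local background of 2330, a margin of 122-fold. The readings of Tkt and Taldo1 lay well below 50569, the highest on the array.

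The dehydrogenases outside the pathway passed as well. Me1, the cytosolic malic enzyme, which turns malate into pyruvate, read 274 (probe M300018116) over a local background of 26.0. Its reading was 11.9 times the blank threshold and 4.92 times the receptor threshold. Idh1, the NADP-linked isocitrate dehydrogenase of cytosol and peroxisomes, read 735 (probe M200002837) over a local background of 106, or 13.2 times the receptor threshold.

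**Figure D2:**
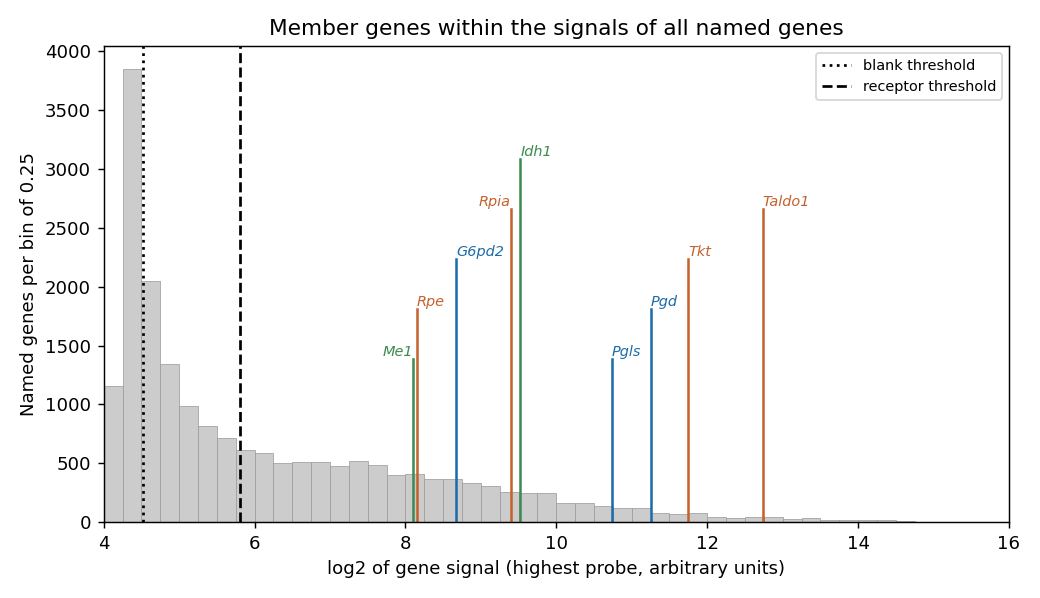
Number of named genes per bin of log2 signal (grey bars, highest probe of each gene, 19321 genes) in the parental array, with a coloured line at each of the 9 measured members. Line heights carry no value. The dotted and dashed lines are the blank and receptor thresholds, and all 9 genes lie to the right of both.

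Local background at the member spots ran from 8.72% of the spot median at Rpia to 69.8% at G6pd2. This share also differed between the array's 24 blocks, which are the printed grids of spots. Among gene spots over 500, its block median ran from 9.97% to 51.7%, and the block of G6pd2 had the highest. G6pd2, Rpe and Me1 themselves read below 500. Me1, Rpia and Taldo1 had a smaller share than the median of their block. The other members had a larger one, such as Rpe at 59.6% beside 31.5%. At Taldo1 the local background of 2330 exceeded the brightest of the 8 neighbours, 1890, whereas next to Tkt a neighbour read 7820. At Pgls the brightest neighbour read 11262 and at Rpia it read 10156. The part of neighbours and of the block in the spot medians was not tested. With the local background subtracted, all 9 members passed the receptor threshold of that setting, beside 41.4% of all named genes. G6pd2 stood at 4.57 times that threshold, Rpe at 4.26 and Me1 at 9.21.

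**Figure D3:**
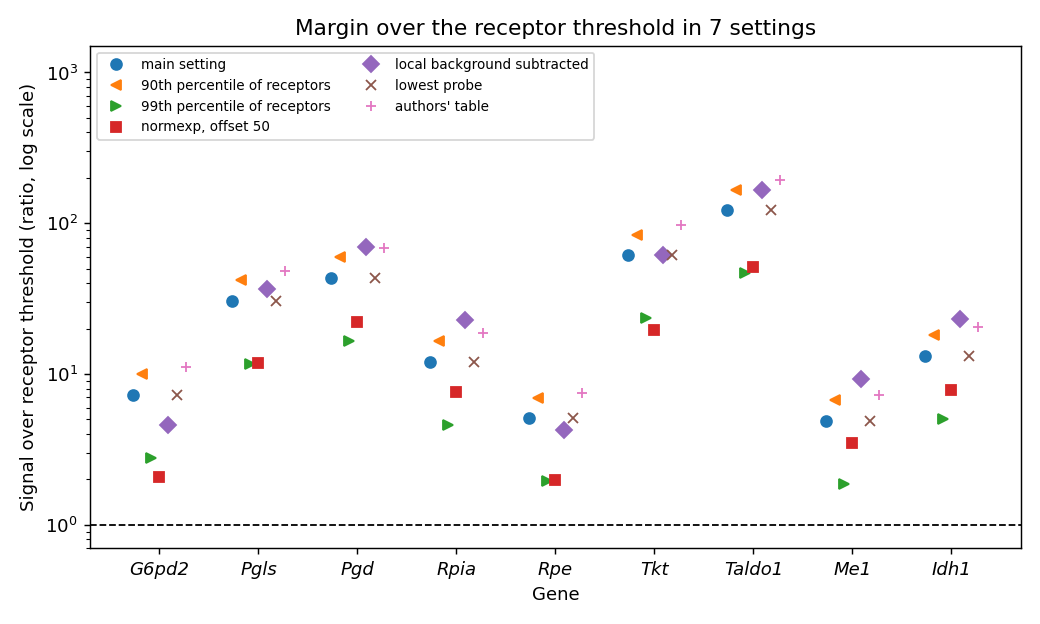
Signal of each measured gene divided by the receptor threshold, on a log axis, in the main setting and 6 others (symbols). The dashed line marks a ratio of 1. All points lie over it, the closest at 1.88 for Me1 with the 99th percentile of the receptors and 1.95 for Rpe in the same setting.

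The authors' deposited table gave a value for each of the 9 probes. G6pd2 stood at 188, Pgls at 819 and Pgd at 1172. In the non-oxidative branch Rpia stood at 317, Rpe at 128, Tkt at 1659 and Taldo1 at 3305. Me1 stood at 123 and Idh1 at 347. Divided by the spot median less the mean of the blanks, these values gave 0.485 to 0.486 for all 9, so the table holds the same readings on another scale.

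Genes around these enzymes were taken from 6 lists of 62 genes, of which 55 had a named probe. The lists too were chosen with earlier results of these data known. Of the 55, 53 passed the blank threshold and 42 passed the receptor threshold, beside 72.8% and 42.8% of all named genes. Their median was 243, beside 40.1 for all named genes.

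Among 13 other sources of NADPH, 12 passed the blank threshold and 8 the receptor threshold, with a median of 119. Glud1, a mitochondrial glutamate dehydrogenase that accepts NADP, read 1974. H6pd, which carries out the glucose 6-phosphate dehydrogenase step in the endoplasmic reticulum, read 77.8, or 1.39 times the receptor threshold. Idh2, the mitochondrial counterpart of Idh1, read 1232. Of the mitochondrial malic enzymes, Me2 read 647, while Me3 read 22.4 and was not over the blank threshold. Between the thresholds lay Mthfd2l at 47.3, Nadk2 at 29.8, Aldh1l1 at 27.3 and Aldh1l2 at 26.7. Nadk2 makes NADP inside mitochondria, and the other 3 are enzymes of folate metabolism. Folate enzymes of the same list stood on both sides, since Mthfd1 at 482 and Mthfd2 at 1249 passed the receptor threshold. The cytosolic NAD kinase Nadk, which pairs with Nadk2, read 1052. Mthfd1, Mthfd2 and Nadk were named after their values were seen.

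Of 10 genes of side reactions and of ribose 5-phosphate use, 9 passed the blank threshold and 7 the receptor threshold, with a median of 229. The transketolase-like genes stood on the other side of the receptor threshold from Tkt. Tktl1 read 23.4, or 1.02 times the blank threshold, and Tktl2 read 18.4 and was not over it. Tktl1 passed the blank threshold in 4 of 10 settings, so its call turns on the setting. Shpk, the sedoheptulose kinase that is known to restrain the pathway in macrophages, lay between the thresholds at 34.7. Over the receptor threshold were Prps1 at 701 and Prps2 at 327, the synthetases that turn ribose 5-phosphate into the nucleotide precursor PRPP, as well as Dera at 659 and Pgm2 at 131.

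All 5 measured genes of glucose entry passed the receptor threshold, with a median of 369. Hk1 lost that call at the 99th percentile of the receptors, at 0.569 times. The glucose transporters Slc2a1 and Slc2a3 read 369 and 274, and the hexokinases Hk1 and Hk2, which make glucose 6-phosphate, read 83.1 and 582. Hk3 and Gpi1 had no named probe.

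Partners of Me1 and Idh1, enzymes and carriers that move citrate, malate and pyruvate between mitochondria and cytosol, passed the blank threshold in 9 of 9 cases and the receptor threshold in 8. The malate dehydrogenases Mdh1 and Mdh2 read 5071 and 5958. Acly, which splits citrate in the cytosol, read 243, and Aco1, the cytosolic aconitase, read 166. Pcx, the pyruvate carboxylase, lay between the thresholds at 32.4. The pyruvate carrier gene Mpc1 had probes on different sides of the receptor threshold, at 1201 and 30.4. Mpc2 had no named probe.

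Genes on the using side, which draw on NADPH in peroxide reduction or are bound up with it, passed the blank threshold in 10 of 10 cases and the receptor threshold in 8, with a median of 547. Gsr, the glutathione reductase, read 1587. Blvrb, a flavin and biliverdin reductase, read 813, the heme oxygenase Hmox1 read 1001 and catalase, Cat, which binds NADPH, read 281. Between the thresholds were the cytosolic thioredoxin Txn1 at 45.6 and the quinone reductase Nqo1 at 26.8. The other thioredoxin genes of the list, named after their values were seen, passed the receptor threshold. The thioredoxin reductases Txnrd1, Txnrd2 and Txnrd3 read 2039, 200 and 108, and the mitochondrial thioredoxin Txn2 read 1100. Cbr1 had no named probe.

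Of 8 measured regulators, 8 passed the blank threshold and 6 the receptor threshold. Nfe2l2, whose product NRF2 is known to drive several of the member genes, read 706, and its inhibitor Keap1 read 164. Its competitor at the same DNA element, Bach1, lay between the thresholds at 47.2. The deacylases Sirt2 and Sirt5 read 223 and 89.0. Tkfc, the triokinase also placed in this list, lay between the thresholds at 26.1, and Trp53 had no named probe.

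**Figure D4:**
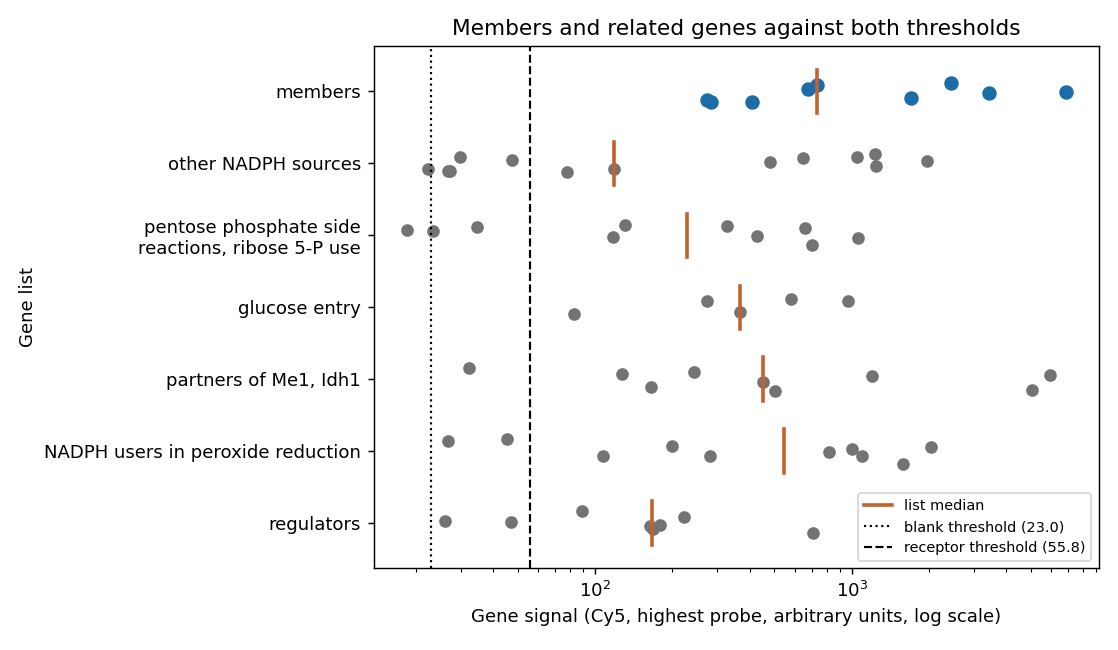
Gene signal (points, highest probe, log axis, arbitrary units) of the 9 measured members in blue and of the 55 measured related genes in grey, by list, with list medians as orange bars. Vertical spread within a list only separates points. The dotted and dashed lines are the blank and receptor thresholds. Only Me3 and Tktl2 lie to the left of the blank threshold.

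All 10 members, G6pdx included, matched the RefSeq promoter table by symbol, with 13 windows of 300 bases among them. G6pd2 differed from the rest in base composition. Its window held 32.7% G and C and 1 CpG, while the other 12 windows held 48.3% to 74.7% G and C and 4 to 35 CpG. Over all 32851 windows the median was 52.7% (25th to 75th percentile 45.7 to 61.7) and 7 CpG. The letters GGGCGG, a GC box, occurred on either strand in a window of 9 of the 10 genes, beside 38.2% of 27025 genes in the table, and G6pd2 was the gene without it. A CCAAT box, searched as CCAAT, occurred in 5 of 10 beside 41.1%, and a TATA box, searched as TATAAA, in 0 of 10 beside 15.7%.

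**Figure D5:**
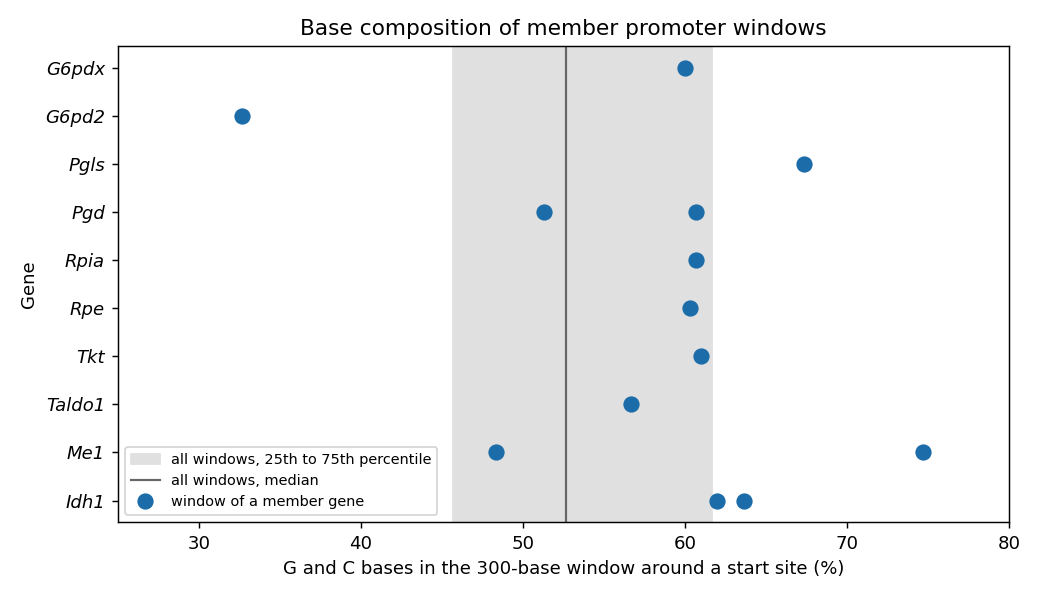
Percent of G and C bases in each 300-base promoter window of the 10 genes (blue points, 13 windows), with the median of all 32851 windows (line) and their 25th to 75th percentile (grey band). G6pd2, at 32.7%, is the member left of the band.

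The core of the antioxidant response element, the DNA site of NRF2, was searched as TGACNNNGC on both strands. It occurred in a window of 3 of the 10 genes, beside 14.0% of all genes. The 3 matches are shown because these enzymes are known as NRF2 targets, each with its flanks on the gene's strand and the match in capitals, from RefSeq on GRCm38.p6.
Me1, chr9:86695901-86695930, minus strand: gatgccgccgTGACTCAGCgcttctcgcgg
G6pdx, chrX:74428918-74428947, minus strand: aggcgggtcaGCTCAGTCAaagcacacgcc
Pgd, chr4:149166060-149166089, minus strand: atttcagagcTGACATTGCactgatcggac
In Me1 the match began 6 bases before the start and also holds TGACTCA, the letters of an AP-1 site, so the patterns overlap there. The G6pdx match lay in reverse and began 57 bases before the start. The Pgd match lay in the second of its windows and began at base 4 of the transcribed part. A match is a description of letters, and binding was not measured. Me1 and Pgd, which hold a match, and the 7 measured genes that hold none all passed the receptor threshold.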

How the data were processed

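One parental RAW264.7 array was used. Per the labels' protocols, column-purified total RNA was amplified to amino allyl RNA, coupled to Cy5 and hybridised by the array maker's protocol. Per the file headers, the deposited intensity values are spot and local background medians of the Cy5 channel from a scan at 3 gains, without subtraction, and 0 of 27456 spots were flagged. The scanner's software was not used here. The authors' deposited table of intensity (median 25, 6784 empty cells) has a scale the labels do not state.

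Probe names came from the platform's annotation, and gene identifiers led to current symbols in the RefSeq table of GRCm38.p6: 20690 of 23473 probes had 1 symbol, 2783 had none, 0 had several and 20556 matched. The blank threshold used 2464 of 2736 blanks (5% left out at each end; mean 20.6, SD 1.18). Of 1283 genes with several probes, the median ratio of highest to lowest was 1.89. Alternatives covered both thresholds, background correction (normexp in limma 3.58.1, R 4.3.3, offset 50), the probe rule and the authors' table. The threshold rule was tested on simulated data, with Python 3.11.15. Members and lists were chosen with earlier results of these data known. Related genes were named if not over the blank threshold, between the thresholds, or with probes on different sides of a threshold, plus the first 4 per list in alphabetical order over the receptor threshold. The promoter searches were added after the data were examined, and no coordinates are given for probes.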

Additional observations from a re-analysis of the deposited data

How the results depend on the processing

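All 9 measured members passed the blank threshold in 10 of 10 settings and the receptor threshold in 7 of 7, the main setting included. Over all named genes, 63.2% to 77.2% passed the blank threshold in these settings. The share over the receptor threshold ran from 27.5% with the 99th percentile of the receptors to 49.6% with the 90th. Not every setting could take a call away. With 1 probe per member, the lowest-probe setting repeats the main readings, and the authors' table holds those readings on another scale. The settings with 1 SD and with the 90th percentile of the receptors only lower the threshold. With 3 SD, the 99th percentile of the blanks or no trimming, the blank threshold moved only to 24.2, 24.8 and 23.7. Thresholds from the blanks of a probe's own block ran from 21.3 to 24.3. The dimmest member read 274, so these settings could not take a member's call away either. The related genes over the blank threshold numbered 49 to 54 of 55, and those over the receptor threshold 34 to 45. The median member signal was 630 with the local background subtracted, against 735 without, while the median of all named genes was 13.9 against 40.1. Among the related genes, Me3 passed the blank threshold only with 1 SD in place of 2, and Tktl1 lost its call in 6 settings. Nadk2, Shpk and Pcx lost theirs with normexp and with the background subtracted. The cause was not tested. At the 99th percentile of the receptors, H6pd, Nnt, Rbks, Pgm2, Hk1, Slc25a10, Txnrd3 and Sirt5 lost their receptor calls, as a higher threshold calls fewer genes by its construction. With the lowest probe, Mpc1 lost its call. No paired analysis was possible because there is 1 sample in 1 group. Whether the low readings reflect the probes or the transcripts was not tested, and each member rests on 1 spot.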
